A study of Mus musculus with 6 samples.

Results

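Extracellular matrix genes were examined in whole pituitary glands of mice labelled as lacking BMAL1, the transcription factor that pairs with CLOCK to drive the circadian clock. The set was defined by gene symbol, and the symbols were chosen with earlier results of these data known. It holds collagen chains, laminin chains, CCN proteins, fibulins, matrix metalloproteinases (MMPs), their tissue inhibitors (TIMPs), and Mgp, Dcn, Lum, Bgn, Fn1 and Sparc. It comprised 83 of the 12393 genes that had a probe set assigned to a single gene on the Affymetrix mouse array, covered by 135 probe sets. For each gene the probe set with the highest mean over all 6 arrays was used. Of the 83 genes, 35 passed a filter that kept the brightest 60% of probe sets, and 48 fell below it.

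The arrays labelled Bmal1-/- numbered 3 and carried RNA from male C57BL/6J mice of that genotype. The wild-type arrays, also 3, came from male mice of the same strain. All animals were 8 to 12 weeks old, lived under 12 hours of light and 12 of darkness, and were killed at zeitgeber time 12, when the lights went off. Each array carried a pool of 3 pituitaries, so that an array averages over animals. The labels name no cell type to which the deletion is limited. Values are linear intensities summarised with MAS5, the number of arrays limits the precision, and n = 3 arrays per genotype throughout.

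The extracellular matrix of the pituitary lies mainly around its fenestrated capillaries and in the basement membranes that bound the cords of endocrine cells. Fibrillar collagens form load-bearing fibres, type IV collagen and laminins form the basement membrane sheet, small proteoglycans such as decorin coat the fibres, and MMPs and TIMPs set the pace of turnover. CCN proteins are secreted modular proteins that bind integrins and growth factors and are called matricellular because they signal from the matrix rather than build it. In the anterior lobe of the rat, pericytes are known producers of fibrillar collagen. In whole glands, fewer cells of a type and less RNA per cell cannot be told apart.

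Pituitary identity was plain on all arrays, with readings of Gh, the growth hormone gene, between 15479.6 and 16756.3 on the arrays labelled Bmal1-/- and between 18200.8 and 20434.1 in wild type. Pearson's r between arrays over the tested probe sets ranged from 0.980 to 0.986 for arrays sharing a genotype, and from 0.970 to 0.976 otherwise. The array of wild-type replicate 2 lay nearest the other genotype, at 0.975 to 0.976. The probe set for the targeted gene, Arntl, read 112.1, 102.0 and 127.5 on the arrays labelled Bmal1-/-, against 39.6, 51.7 and 38.6 in wild type. The targeted gene was thus higher on the arrays labelled as lacking it (log2 difference 1.13, adjusted p = 0.000653). The position of that probe set relative to the deletion was not known here, so the reading cannot settle the labels, and all directions below hold for arrays as labelled.

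Ccn3 and Col1a2 rose on the arrays labelled Bmal1-/-, and Mgp, Dcn, Timp3, Timp2 and Ccn4 fell. These 7 of the 35 tested members passed the test, beside 5.66% of all 8033 genes tested (limma, Benjamini-Hochberg adjusted p under 0.05 over all tested probe sets). The 2 that rose were 5.71% of the tested members, beside 3.00% of all genes, and the 5 that fell were 14.3%, beside 2.66% of all genes. After quantile normalization 1 rose and 5 fell. For 20 of the 35 members (57.1%) the readings of the genotypes were fully separate, beside 26.4% of all genes tested. Of these, 13 were lower on the arrays labelled Bmal1-/- (37.1%, beside 12.7% of all genes) and 7 were higher (beside 13.7% of all genes). The log2 difference was below 0 for 21 of the 35 members, beside 50.1% of all genes. The median log2 difference, Bmal1-/- minus wild type, was -0.12 over the tested members and 0.0 over all genes tested. After quantile normalization the member median was -0.06, beside 0.01 over all genes, and without wild-type replicate 3 it was -0.04. Differences are on log2 of intensity plus 16, which understates the change of dim genes. The median absolute log2 difference was 0.30 over the members and 0.14 over all genes.

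**Figure D1:**
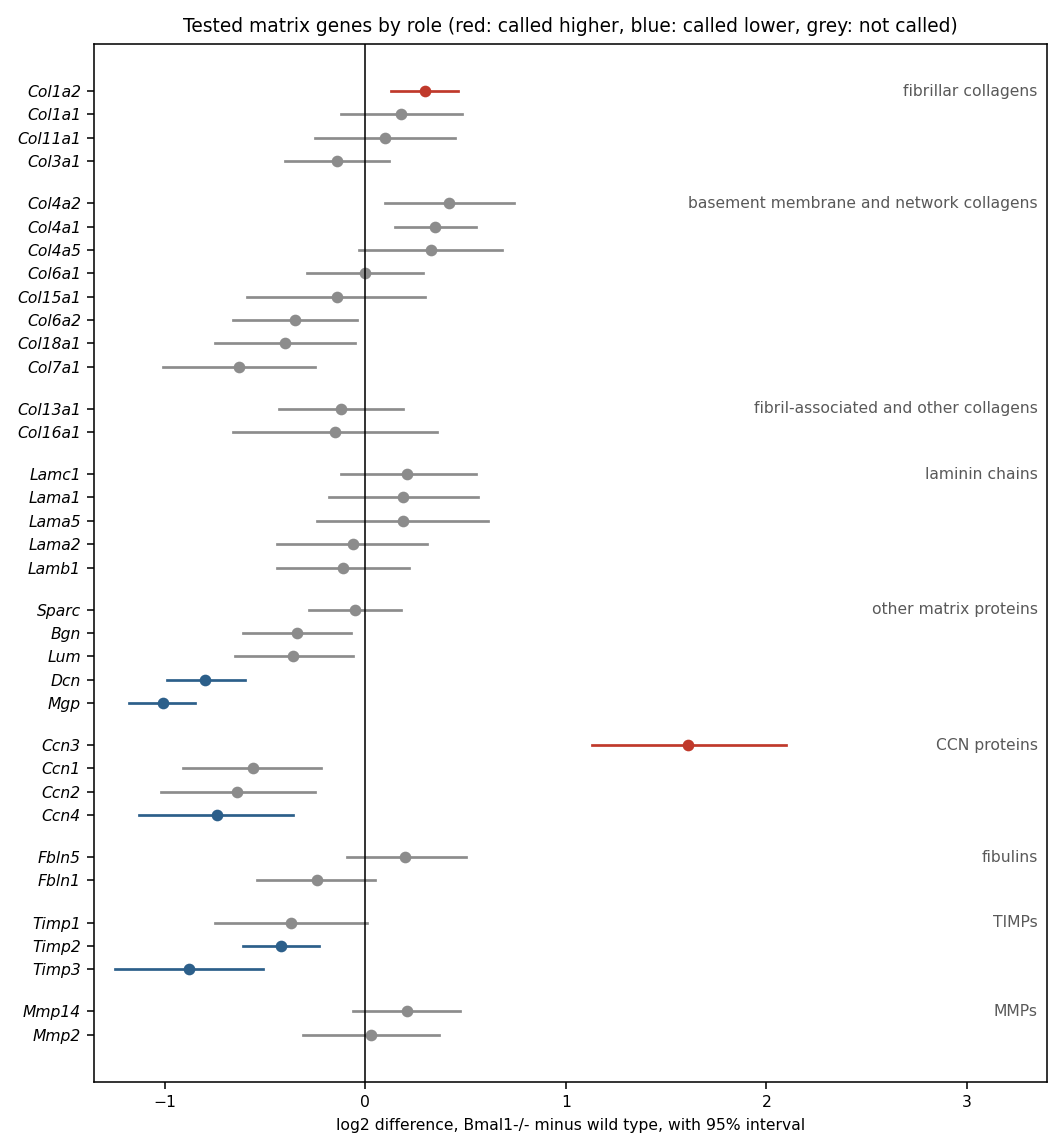
Log2 difference of the 35 tested matrix genes (horizontal axis, Bmal1-/- minus wild type, on log2 of intensity plus a pseudocount of 16), grouped by role down the page, with 95% intervals from limma. Ccn3 stands alone to the right at 1.61, Mgp, Dcn, Timp3 and Ccn4 lie furthest to the left, and all laminin chains have intervals that include 0.

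Of the other matrix proteins in the set, Mgp and Dcn fell, and Lum, Bgn and Sparc did not pass. Mgp encodes matrix Gla protein, a vitamin K-dependent inhibitor of calcification that also binds bone morphogenetic proteins. Its intensity was 421.8, 458.8 and 418.7 on the arrays labelled Bmal1-/-, against 911.0, 902.4 and 858.3 in wild type. The genotypes lay far apart compared with the spread within each. The means were 433.1 ± 22.3 on the arrays labelled Bmal1-/- and 890.6 ± 28.3 in wild type (SD, n = 3 each), and the log2 difference was -1.01 (SE 0.07, adjusted p = 1.52e-05). Mgp was the member with the smallest p-value, and it kept its call under all 16 alternative settings tried.

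Dcn encodes decorin, a small leucine-rich proteoglycan that binds collagen fibrils and transforming growth factor beta. It read 290.5, 272.6 and 244.9 on the arrays labelled Bmal1-/-, against 499.5, 457.0 and 481.0 in wild type. The highest reading on the arrays labelled Bmal1-/- was well below the lowest in wild type. The log2 difference was -0.80 (SE 0.09, adjusted p = 0.000312), and this call too held under all 16 alternatives.

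The related proteoglycan genes Lum (lumican) and Bgn (biglycan) were also lower without overlap, but neither passed the test. Lum read 43.1, 45.5 and 42.6 on the arrays labelled Bmal1-/-, against 51.9, 61.2 and 69.4 in wild type (log2 difference -0.36, SE 0.14, adjusted p = 0.153). Bgn read 108.2, 110.0 and 82.1 on the arrays labelled Bmal1-/-, against 122.7, 131.1 and 137.1 in wild type (log2 difference -0.34, SE 0.12, adjusted p = 0.135). The other tested probe sets of Bgn did not follow its brightest, with log2 differences of -0.05 and 0.18. Sparc, a collagen-binding glycoprotein, averaged 252.7 ± 12.0 on the arrays labelled Bmal1-/- and 263.6 ± 33.3 in wild type, with overlap, and its log2 difference of -0.05 had a 95% interval of -0.28 to 0.18. Fn1, which encodes fibronectin, lay below the filter and averaged 15.6 ± 1.51 on the arrays labelled Bmal1-/- and 14.3 ± 3.56 in wild type.

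**Figure D2:**
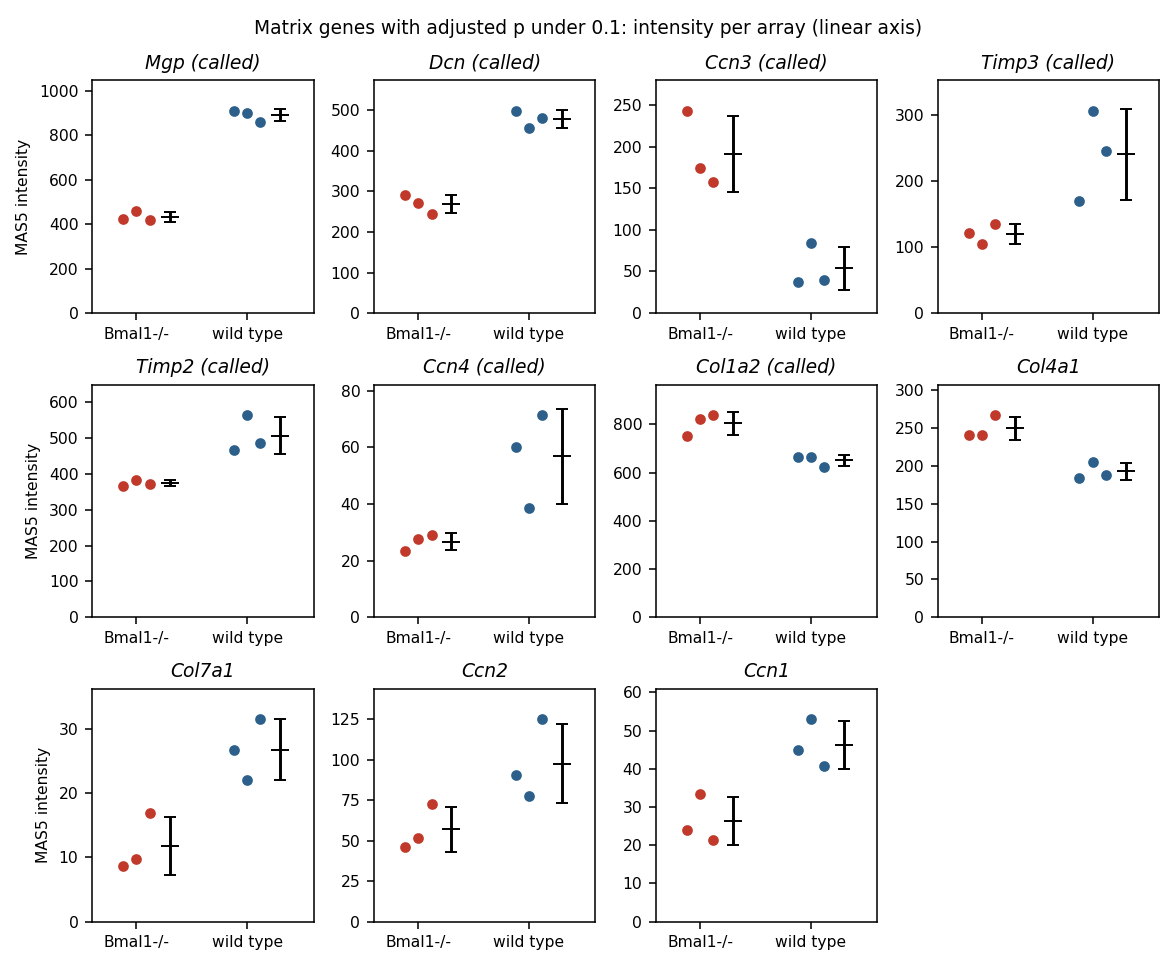
MAS5 intensity (linear vertical axis from 0, scaled per gene) of the 11 matrix genes with adjusted p under 0.1 on each of the 3 arrays labelled Bmal1-/- (red, left) and 3 wild-type arrays (blue, right). Black bars are the mean and SD. No gene shown has overlapping genotypes. Wild-type replicate 2 is the highest wild-type array for Ccn3, Timp3, Timp2, Ccn1, Col4a1 and Col1a2. It is the lowest for Ccn4, Ccn2, Col7a1 and Dcn, and lies between the others only for Mgp.

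Calls among the CCN genes went in both directions. Ccn3, also known as Nov, rose, Ccn4, also known as Wisp1, fell, and Ccn1 (Cyr61) and Ccn2 (Ctgf) were lower without passing the test. Ccn3 read 243.3, 174.1 and 157.2 on the arrays labelled Bmal1-/-, against 37.9, 83.8 and 39.3 in wild type. Every array labelled Bmal1-/- exceeded the highest wild-type array, which was replicate 2. The means were 191.5 ± 45.6 on the arrays labelled Bmal1-/- and 53.7 ± 26.1 in wild type, a ratio of 3.57 on the linear scale. The log2 difference of 1.61 (SE 0.22, adjusted p = 0.00163) was the largest among the 35 tested members in either direction. The suffix of this probe set's name marks it as one whose probes may cross-hybridise.

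The other probe set of Ccn3 rose as well. It read 199.2, 103.8 and 86.0 on the arrays labelled Bmal1-/-, against 45.9, 64.5 and 38.9 in wild type (log2 difference 1.09, SE 0.24, adjusted p = 0.0218). Replicate 4 gave the highest reading of the arrays labelled Bmal1-/- at both probe sets. The call of the brighter probe set held under all 16 alternatives, with log2 differences from 1.13 to 1.90.

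Ccn4 read 23.5, 27.8 and 28.9 on the arrays labelled Bmal1-/-, against 60.1, 38.7 and 71.4 in wild type. The log2 difference was -0.74 (SE 0.18, adjusted p = 0.0323), and its other probe set fell too (-0.66, SE 0.16, adjusted p = 0.0301). The spread lay mainly in wild type, where replicate 2 was lowest. Leaving out any 1 array except wild-type replicate 2 ended the call (highest adjusted p = 0.127). So did dropping the filter on dim probe sets, or the trend of variance with intensity.

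Ccn2, a target of transforming growth factor beta, read 46.1, 52.0 and 72.9 on the arrays labelled Bmal1-/-, against 77.7 to 125.2 in wild type (log2 difference -0.64, SE 0.18, adjusted p = 0.0562). Ccn1, an immediate early gene, read 24.0, 33.5 and 21.4 on the arrays labelled Bmal1-/-, against 40.8 to 53.0 in wild type (log2 difference -0.56, SE 0.16, adjusted p = 0.0596). Neither gene overlapped between genotypes. Ccn2 passed in 5 of its 16 alternatives and Ccn1 in 0 of 15. Ccn5 lay below the filter, with readings of 4.4 to 12.9.

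Of the TIMPs, Timp3 and Timp2 fell, Timp1 did not pass, and Timp4 lay below the filter with no reading above 21.0. TIMP3 is the family member that stays bound to the matrix and also inhibits ADAM proteases, while TIMP2 takes part in the activation of pro-MMP2 by MMP14 on the cell surface. The promoters of the TIMP genes that fell are shown because BMAL1 binds DNA at E-boxes. Each sequence is the 250 bases before the RefSeq start in build GRCm38.p6, 5′ to 3′ on the gene's own strand, and capitals mark E-box-like CANNTG sites. The Timp2 window is chr11:118355412-118355661 on the minus strand, and the Timp3 window is chr10:86300162-86300411 on the plus strand.
Timp2: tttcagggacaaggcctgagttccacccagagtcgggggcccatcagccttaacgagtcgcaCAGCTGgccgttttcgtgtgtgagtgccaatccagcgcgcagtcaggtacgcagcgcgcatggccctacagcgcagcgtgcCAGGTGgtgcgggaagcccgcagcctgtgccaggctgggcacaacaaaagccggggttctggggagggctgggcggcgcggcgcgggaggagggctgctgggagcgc
Timp3: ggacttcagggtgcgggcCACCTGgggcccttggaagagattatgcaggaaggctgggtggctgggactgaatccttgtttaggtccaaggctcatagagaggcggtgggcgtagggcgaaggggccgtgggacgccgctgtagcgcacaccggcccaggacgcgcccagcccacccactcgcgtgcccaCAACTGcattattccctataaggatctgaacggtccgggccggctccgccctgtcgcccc

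Both windows are rich in G and C, at 68.0% in Timp2 and 65.6% in Timp3, and each holds 2 CANNTG sites, a short motif that 69.3% of 27025 mouse genes also have in such a window. Neither holds the canonical E-box CACGTG, which 6.86% of genes have. Of the tested members, 25 were matched to a promoter window. Among these, CACGTG occurred only in Fbln1 and the D-box TTATGNAA only in Col13a1 (3.63% of all genes), and TAGGTCA, the core of the element bound by REV-ERB and ROR receptors, in 0 of 25 (2.55% of all genes). GGGCGG occurred in 18 of the 25 (72.0%, beside 35.4% of all genes) and TATAAA in 3 (12.0%, beside 14.3%). All motifs were searched on both strands, and CACGTG is itself a CANNTG site. A match or its lack describes only the letters of these windows. The called genes Mgp, Dcn, Ccn3 and Ccn4 had no window and were not searched.

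Timp3 read 121.9, 104.6 and 134.5 on the arrays labelled Bmal1-/-, against 169.2, 306.9 and 245.1 in wild type. The genotypes did not overlap, though the wild-type arrays differed widely among themselves. The log2 difference was -0.88 (SE 0.17, adjusted p = 0.0125). All 4 probe sets of Timp3 fell, with log2 differences from -0.90 to -0.69, where 5.54% of all tested probe sets passed. The call of the brightest probe set was lost without Bmal1-/- replicate 5 or wild-type replicate 3 (highest adjusted p = 0.0609), and when dim probe sets were kept (0.0521).

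Timp2 read 367.0, 382.7 and 370.1 on the arrays labelled Bmal1-/-, against 466.3, 563.8 and 486.9 in wild type. The arrays labelled Bmal1-/- were tightly grouped below all wild-type arrays, and the log2 difference was -0.42 (SE 0.09, adjusted p = 0.0184). Of its 5 tested probe sets 3 fell, and all 5 had log2 differences below 0, from -0.50 to -0.29. The call was lost without any 1 of the arrays labelled Bmal1-/- or without wild-type replicate 3 (highest adjusted p = 0.0620), and without the intensity trend (0.0750). Timp1 read 26.8, 18.2 and 12.6 on the arrays labelled Bmal1-/-, against 30.9, 29.5 and 26.2 in wild type, with overlap (log2 difference -0.37, SE 0.17, adjusted p = 0.251).

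**Figure D3:**
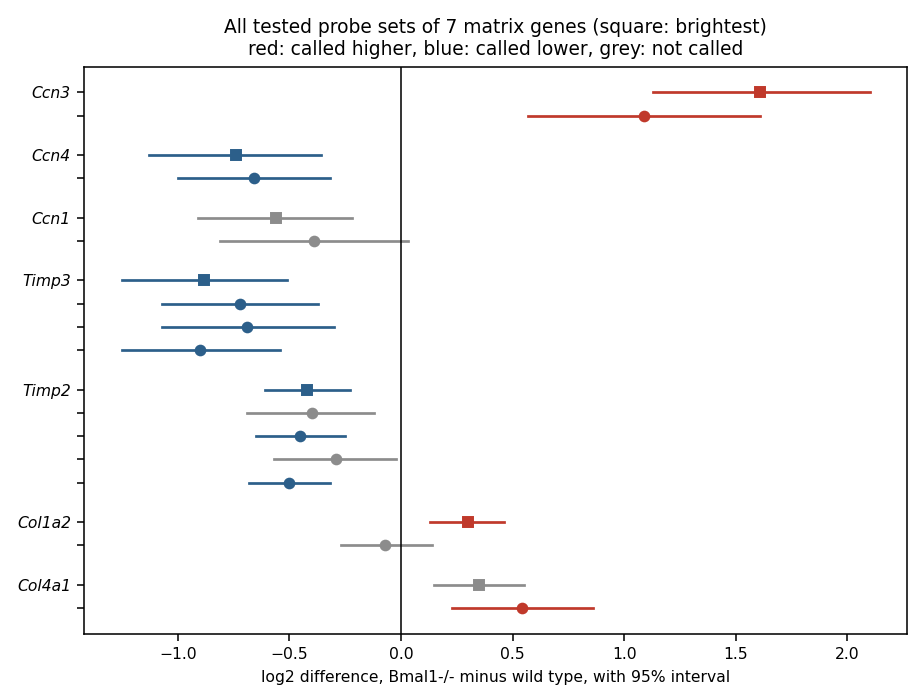
Log2 difference with 95% interval (horizontal axis, Bmal1-/- minus wild type) of every tested probe set of 7 matrix genes, 1 line per probe set, with a square for the brightest. All 4 Timp3, all 5 Timp2 and both Ccn4 lines lie left of 0 and both Ccn3 lines right of it, while the Col1a2 lines lie on opposite sides of 0.

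No protease of the set passed the test. Of 18 MMP genes only Mmp14, a membrane-bound collagenase and activator of pro-MMP2, and the gelatinase Mmp2 passed the filter, and the other 16 read at most 26.2 on any array. Mmp14 read 164.0, 170.8 and 147.2 on the arrays labelled Bmal1-/-, against 163.0, 131.8 and 119.3 in wild type (log2 difference 0.21, 95% interval -0.06 to 0.47, adjusted p = 0.362). Its other probe set had a log2 difference of 0.38 (adjusted p = 0.206). Mmp2 averaged 21.5 ± 3.23 on the arrays labelled Bmal1-/- and 20.7 ± 2.93 in wild type (log2 difference 0.03, 95% interval -0.31 to 0.37).

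Among the fibrillar collagens, which make up the load-bearing fibres, 4 of 9 were tested and 1 rose. Col1a2, the alpha 2 chain of type I collagen, read 749.2, 822.8 and 838.7 on the arrays labelled Bmal1-/-, against 663.2, 665.4 and 623.4 in wild type. The groups were separate but close, with a log2 difference of 0.30 (SE 0.07, adjusted p = 0.0399). The rise rests on 1 of its probe sets. The other read 172.7, 169.2 and 182.5 on the arrays labelled Bmal1-/-, against 186.0, 173.9 and 192.0 in wild type, with overlap and a log2 difference of -0.07 (adjusted p = 0.742). With all tested probe sets of a gene averaged, the Col1a2 difference was 0.11 (adjusted p = 0.388), and the call was also lost in 8 other alternatives.

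The partner chain of type I collagen, Col1a1, read 36.7, 42.5 and 40.2 on the arrays labelled Bmal1-/-, against 31.6, 31.5 and 36.5 in wild type. These did not overlap, by a margin of less than the spread within either genotype, and the log2 difference of 0.18 did not pass (SE 0.14, adjusted p = 0.495). Col3a1, which forms the finer reticular fibres, read 114.8 to 130.0 on the arrays labelled Bmal1-/- and 127.6 to 162.5 in wild type, with overlap (log2 difference -0.14, SE 0.12, adjusted p = 0.539). Col11a1, a minor fibril chain, had a log2 difference of 0.10 (SE 0.16). The Col5 chains, Col2a1 and Col11a2 lay below the filter with no reading above 25.0.

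Of the 14 basement membrane and network collagens 8 were tested, and none passed in limma, with log2 differences from -0.63 to 0.42. Without adjustment, 5 of the 8 had a p under 0.05, beside 21.5% of all genes tested. Of these, Col4a1 and Col4a2 lay above 0, and Col18a1, Col6a2 and Col7a1 below. Col7a1 passed the filter only through its wild-type level, as described below, so its place in this count is no support for a difference. Both chains of the common type IV collagen trimer, Col4a1 and Col4a2, had differences above 0. Col4a1 read 240.7, 241.4 and 267.3 on the arrays labelled Bmal1-/-, against 184.4, 205.3 and 188.0 in wild type, without overlap. Its log2 difference of 0.35 (SE 0.09) just missed the threshold with an adjusted p of 0.0501. Its other probe set passed, at 0.54 (SE 0.14, adjusted p = 0.0499), and the brighter probe set passed in 6 alternatives: equal array medians, estimated array weights, a pseudocount of 64, robust eBayes, the top 40% of probe sets, and without wild-type replicate 2. The mean of both probe sets passed as well.

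Col4a2 read 105.9, 71.0 and 102.3 on the arrays labelled Bmal1-/-, against 68.2, 61.2 and 64.5 in wild type, with replicate 5 close to the wild-type range (log2 difference 0.42, SE 0.15, adjusted p = 0.116). Col4a1 and Col4a2 are divergent neighbours on mouse chromosome 8, and their annotated RefSeq starts lie 21 bases apart on opposite strands in GRCm38.p6. Col4a5, a chain of the minor type IV networks, read 36.9 to 39.1 on the arrays labelled Bmal1-/- and 20.4 to 36.6 in wild type (log2 difference 0.33, SE 0.16, adjusted p = 0.278). Col4a3, Col4a4 and Col4a6 lay below the filter.

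Col7a1, which forms the anchoring fibrils beneath epithelia, read 8.6, 9.7 and 16.9 on the arrays labelled Bmal1-/-, against 26.7, 22.1 and 31.5 in wild type (log2 difference -0.63, SE 0.17, adjusted p = 0.0553). The filter corresponds to an intensity of 17.3, and every reading on the arrays labelled Bmal1-/- lay below it. Col7a1 was thus tested only because its wild-type level was high, and its place among the separate and lower members is no support for a difference. It was the only 1 of the 35 tested members of that kind. The heparan sulfate collagen Col18a1, the source of endostatin, had a log2 difference of -0.40 without overlap (SE 0.16, adjusted p = 0.176), and its other probe set 0.06. Col6a2 had a log2 difference of -0.35 without overlap (SE 0.14, adjusted p = 0.182). Its partner Col6a1, in the same beaded filaments, averaged 48.1 ± 3.35 on the arrays labelled Bmal1-/- and 48.0 ± 4.69 in wild type, with a 95% interval of the difference from -0.29 to 0.29. Col15a1 overlapped, with a log2 difference of -0.14 (SE 0.20).

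The fibril-associated and other collagens were mostly dim, with 2 of 13 tested. Col13a1, a transmembrane collagen, and Col16a1 had log2 differences of -0.12 (SE 0.14) and -0.15 (SE 0.23), and both overlapped between genotypes. Col12a1, a fibril-associated collagen below the filter, averaged 3.73 ± 1.32 on the arrays labelled Bmal1-/- and 17.3 ± 3.25 in wild type, without overlap. When dim probe sets were kept in the fit it was the only 1 of the 48 dim members that passed (log2 difference -0.75, adjusted p = 0.0430), where 1.46% of all probe sets did. Among the 48 dim members, 9 did not overlap between genotypes, 8 of them lower on the arrays labelled Bmal1-/-, and over all genes below the filter the share without overlap was 13.1%. That share covers both directions, and none was taken for the lower direction alone. The median intensity of an array was 31.7 to 32.2 for the arrays labelled Bmal1-/- and 33.5 to 34.3 in wild type. Its part in these dim readings was not tested.

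Laminins, the heterotrimers of basement membranes, did not differ by the test in any of 5 tested chains of 10, with log2 differences from -0.11 to 0.21 and all 5 overlapping. Without adjustment, 0 of the 5 had a p under 0.05 in limma. Lamc1, the gamma chain shared by most laminins, read 76.1, 56.7 and 84.8 on the arrays labelled Bmal1-/-, against 63.1, 49.9 and 67.1 in wild type (log2 difference 0.21, SE 0.15, adjusted p = 0.470). Lamb1 averaged 39.2 ± 4.01 on the arrays labelled Bmal1-/- and 43.9 ± 8.86 in wild type (log2 difference -0.11, SE 0.15). The alpha chains Lama1, Lama2 and Lama5 had log2 differences of 0.19, -0.06 and 0.19 with SE from 0.17 to 0.19. Lama4, the alpha chain typical of vessel walls, lay below the filter and averaged 24.7 ± 6.47 on the arrays labelled Bmal1-/-, against readings of 3.8, 22.2 and 4.7 in wild type. Wild-type replicate 2 lay within the range of the other genotype.

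Of the fibulins, glycoproteins of elastic fibres and basement membranes, Fbln1 and Fbln5 were tested and neither passed. Fbln1 read 34.5, 31.8 and 37.4 on the arrays labelled Bmal1-/-, against 47.3, 44.2 and 40.3 in wild type (log2 difference -0.24, SE 0.14, adjusted p = 0.333). Fbln5, needed to assemble elastic fibres, read 36.1, 38.2 and 35.9 on the arrays labelled Bmal1-/-, against 31.3, 28.1 and 30.0 in wild type (log2 difference 0.20, SE 0.14, adjusted p = 0.431). Their groups did not overlap in either case, in opposite directions. Fbln2 and Fbln7 lay below the filter.

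Genes that work with these proteins were compared through 8 further lists, of which 87 distinct genes were tested, 7 rose and 4 fell. That is 12.6%, against 5.66% of all genes, and the median log2 difference was -0.04. In the basement membrane list of 7 tested genes, Npnt, which encodes the integrin ligand nephronectin, rose, and Nid1, the linker between laminin and type IV collagen, fell. Npnt read 90.6, 115.4 and 105.0 on the arrays labelled Bmal1-/-, against 26.0, 31.1 and 17.4 in wild type (log2 difference 1.56, SE 0.16, adjusted p = 0.000151). Nid1 averaged 43.2 ± 4.88 on the arrays labelled Bmal1-/- and 71.2 ± 12.3 in wild type (log2 difference -0.55, SE 0.14, adjusted p = 0.0463).

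Of 12 tested proteoglycan genes outside the set, 3 rose and none fell. Sdc2 and Sdc4 encode syndecans, heparan sulfate proteoglycans of the cell surface. Sdc4 read 139.9, 149.0 and 148.5 on the arrays labelled Bmal1-/-, against 88.2, 86.7 and 63.6 in wild type (log2 difference 0.77, SE 0.13, adjusted p = 0.00484). Sdc2 averaged 521.6 ± 44.9 on the arrays labelled Bmal1-/- and 343.9 ± 8.80 in wild type (log2 difference 0.58, SE 0.09, adjusted p = 0.00256). Prelp, a leucine-rich proteoglycan of basement membranes, rose by a log2 difference of 0.47 (SE 0.12, adjusted p = 0.0394).

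Of 17 tested genes for collagen processing and crosslinking, Loxl1, a lysyl oxidase that crosslinks elastin and collagen, rose, and P4ha2, a prolyl hydroxylase subunit that stabilises the collagen helix, fell. Loxl1 averaged 575.0 ± 70.4 on the arrays labelled Bmal1-/- and 414.2 ± 33.5 in wild type (log2 difference 0.45, SE 0.10, adjusted p = 0.0224). P4ha2 averaged 125.2 ± 15.4 on the arrays labelled Bmal1-/- and 197.1 ± 24.3 in wild type (log2 difference -0.59, SE 0.12, adjusted p = 0.0154). Neither gene overlapped between genotypes.

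Of 12 tested proteases and inhibitors outside the MMP and TIMP families, only Plat, tissue plasminogen activator, passed. It read 244.2, 255.1 and 235.2 on the arrays labelled Bmal1-/-, against 164.6, 106.4 and 93.5 in wild type (log2 difference 0.96, SE 0.16, adjusted p = 0.00467). Of 13 matrix receptors Sdc4 and the hyaluronan receptor Cd44 rose (Cd44 0.63, SE 0.16, adjusted p = 0.0405) and Ddr1, a collagen-binding receptor tyrosine kinase, fell (-0.60, SE 0.12, adjusted p = 0.0153). The Cd44 call was lost whichever array was left out (highest adjusted p = 0.157). That of Ddr1 held in 10 of 16 alternatives (highest adjusted p = 0.334), and was lost with all its tested probe sets averaged. Without adjustment 10 of the 13 receptor genes had a p under 0.05, beside 21.5% of all genes tested, and their median log2 difference was 0.21. Of 7 other matricellular and adhesive genes only Tgfbi, a secreted protein induced by transforming growth factor beta, passed, and it fell. It read 24.8, 20.3 and 29.0 on the arrays labelled Bmal1-/-, against 55.1, 44.1 and 63.9 in wild type (log2 difference -0.79, SE 0.16, adjusted p = 0.0150). The Tgfbi call held in 11 of 15 alternatives (highest adjusted p = 0.154), and was lost with all its tested probe sets averaged.

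None of 17 tested genes of transforming growth factor beta signalling passed, with the smallest p-values at Pmepa1 (-0.48, adjusted p = 0.0576) and Tgfb3 (-0.38, adjusted p = 0.162), and 12 of the 17 were below 0. Without adjustment 2 of these 17 had a p under 0.05 in limma. None of 6 tested elastic fibre genes passed, and 1 had an unadjusted p under 0.05. Npnt, Sdc2, Sdc4 and Plat kept their calls under every alternative run for them, and each of the other 7 lost its call in at least 3.

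**Figure D4:**
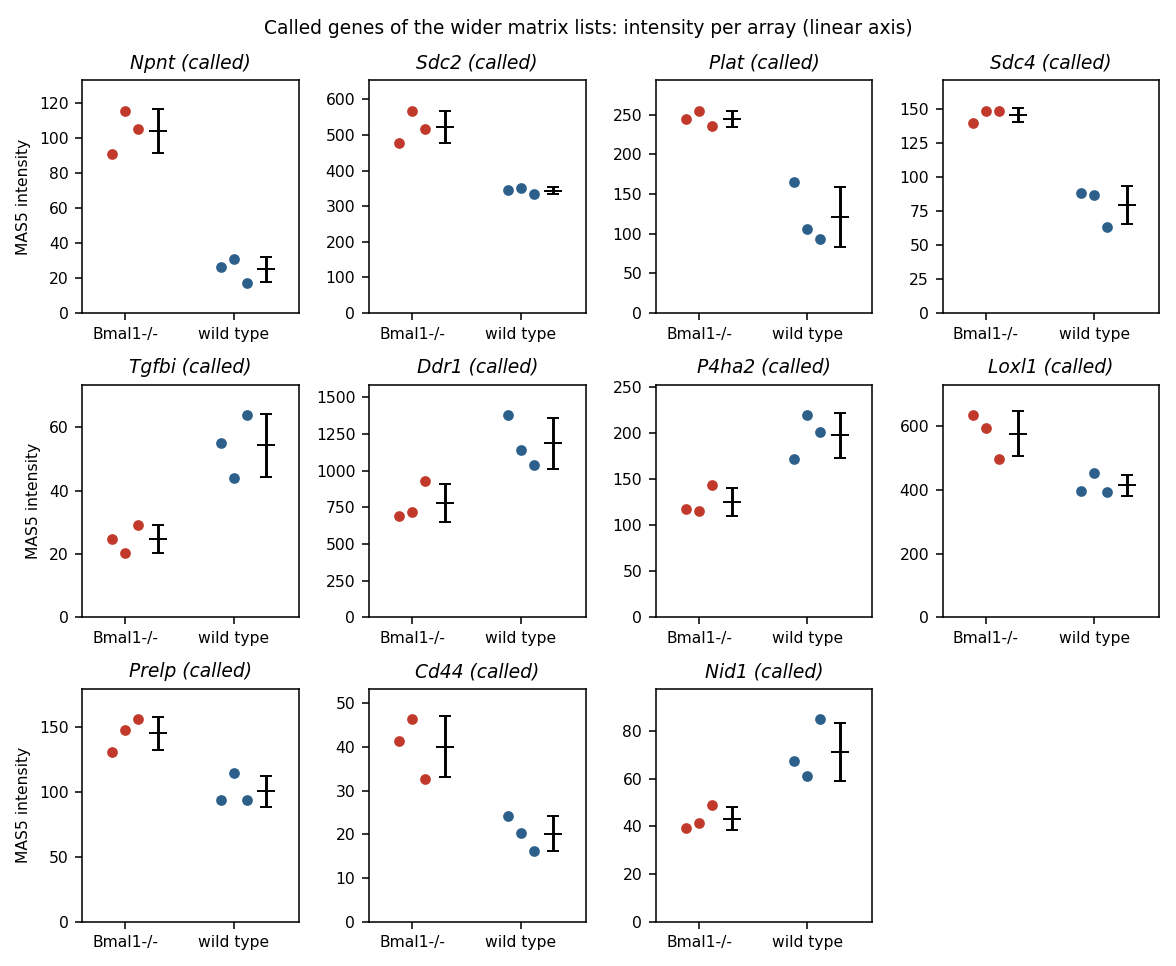
MAS5 intensity (linear vertical axis from 0, scaled per gene) of the 11 called genes of the wider matrix lists on each of the 3 arrays labelled Bmal1-/- (red, left) and 3 wild-type arrays (blue, right), with mean and SD in black. Npnt shows the widest separation for its size, at 90.6 to 115.4 on the arrays labelled Bmal1-/- and 17.4 to 31.1 in wild type.

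**Figure D5:**
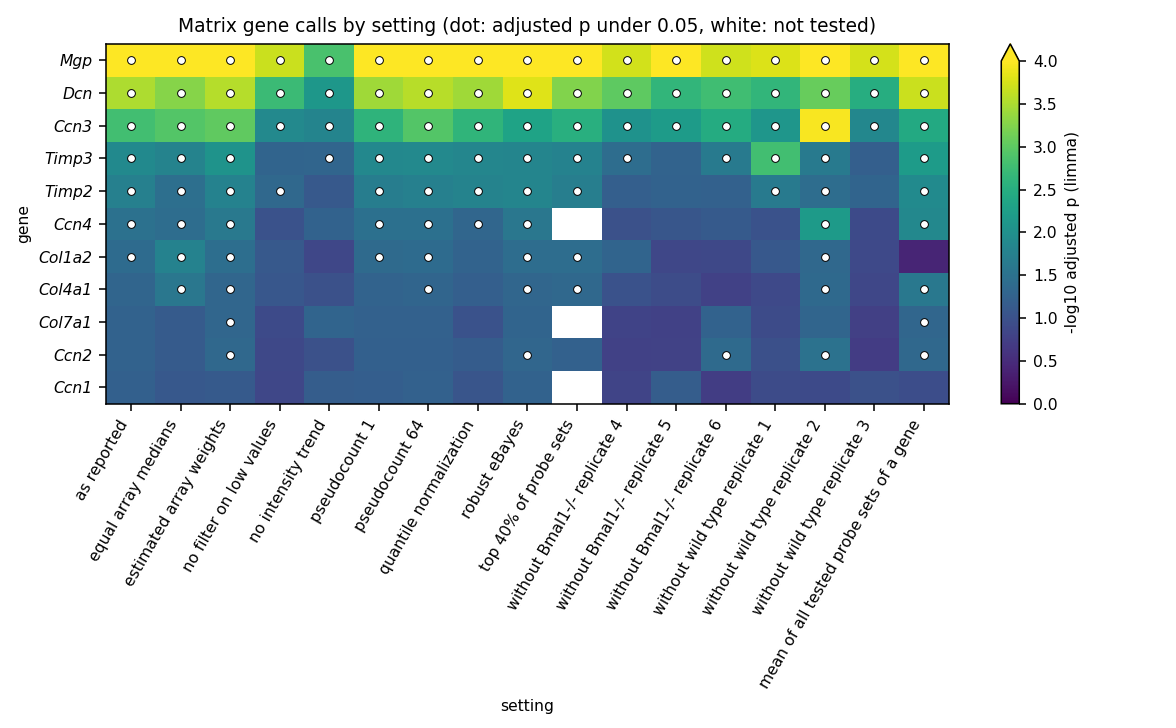
Adjusted p (colour, as -log10) of the 11 matrix genes with adjusted p under 0.1, 1 row per gene, under the reported setting and 16 alternatives, 1 column each. Dots mark calls, and the rows of Mgp, Dcn and Ccn3 carry a dot in every column while those of Col1a2 and Ccn4 lose it in many of the columns that leave out an array.

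Markers of the cells that make matrix were read on the same arrays. Of 6 tested pericyte and smooth muscle markers 1 fell, Rgs5, a signalling regulator typical of pericytes, at 408.1, 380.0 and 388.9 on the arrays labelled Bmal1-/-, against 624.2, 741.8 and 686.1 in wild type (log2 difference -0.77, SE 0.08, adjusted p = 0.000244). The summed level of all 14 markers of that list, of which Rgs5 made up the larger share, was 666.9 to 692.6 on the arrays labelled Bmal1-/- and 943.1 to 1064 in wild type. The other 13, a sum added after the values were seen, came to 284.5 to 290.1 on the arrays labelled Bmal1-/- and 318.9 to 358.5 in wild type. All 6 tested markers of the list lay below 0, with a median of -0.26. The contractile markers Myh11, Tagln, Cnn1 and Des of that list lay below the filter. Pdgfrb, a receptor of pericytes and fibroblasts, was measured at 76.1 to 105.3 on the arrays labelled Bmal1-/- and 80.1 to 107.1 in wild type, with overlap.

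Of 11 tested fibroblast markers 2 fell, the transcription factor Tcf21 (-0.59, adjusted p = 0.0462) and Islr (-0.48, adjusted p = 0.0388). Leaving out 1 array could end either call (highest adjusted p = 0.157 for Tcf21 and 0.139 for Islr). Of the 11, 8 lay below 0, with a median of -0.13, while Prrx1 (0.37), Meox1 (0.26) and Cd34 (0.08) lay above 0, uncalled. The summed level of the 18 markers was 1361 to 1557 on the arrays labelled Bmal1-/- and 1595 to 1720 in wild type, while Pdgfra overlapped and Dpt and Pi16 lay below the filter. The largest parts of that sum were Thy1 and Gsn, both uncalled and overlapping. They averaged 597.0 and 287.7 on the arrays labelled Bmal1-/-, against 641.0 and 345.0 in wild type. Of 15 tested endothelial markers Plvap, a component of the diaphragms of fenestrated capillaries, rose (0.40, adjusted p = 0.0287), and the list summed to 1060 to 1205 on the arrays labelled Bmal1-/- and 976.2 to 1111 in wild type, with overlap. Plvap was the largest part of that sum, averaging 365.1 on the arrays labelled Bmal1-/- and 272.8 in wild type. Of the 15, 8 lay below 0, and the median log2 difference was -0.01. Flt4 was lower without overlap but uncalled (-0.53, adjusted p = 0.0880). The Plvap call was lost in 6 of 16 alternatives (highest adjusted p = 0.103). Of 5 tested meningeal markers Aldh1a2, a retinoic acid synthase, rose (0.58, adjusted p = 0.00836), 3 of the 5 lay below 0, and the median log2 difference was -0.22. Of these 3, Foxd1 read at most 15.7 on the arrays labelled Bmal1-/-, below the filter's intensity of 17.3, against 19.7 to 25.2 in wild type. Foxd1 was thus tested only through its wild-type level. Its place in this count and median is no support for a difference. The defining solute carriers Slc6a13, Slc6a20a and Slc22a6 lay below the filter. The list summed to 725.3 to 801.2 on the arrays labelled Bmal1-/- and 599.2 to 693.4 in wild type, but without Aldh1a2, a sum also added after the values were seen, to 234.5 to 299.8 on the arrays labelled Bmal1-/- and 299.1 to 331.4 in wild type. Of 12 tested macrophage and leukocyte markers C1qa fell (-0.48, adjusted p = 0.0280), and the list summed to 593.6 to 695.9 on the arrays labelled Bmal1-/- and 824.3 to 936.8 in wild type. The C1qa call was lost whichever array was left out (highest adjusted p = 0.0891). All 12 lay below 0, beside 50.1% of all genes, with a median of -0.26. Without adjustment 5 of the 12 had a p under 0.05 in limma, beside 21.5% of all genes tested.

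Markers of the endocrine and other cells were read in the same way, beside 5.66% of all genes. The called share was 23.1% for hormone cells and 16.7% for the posterior lobe and glia. Of 13 tested hormone cell markers 3 fell, namely Gh (-0.27, adjusted p = 0.0217), Cga, the common glycoprotein hormone subunit (-0.31, adjusted p = 0.0190), and Ghrhr, which encodes the GHRH receptor of somatotrophs (-0.66, adjusted p = 0.00553). The Ghrhr call held under all 16 alternatives, while those of Gh and Cga were lost after quantile normalization, among others. Of 6 tested posterior lobe and glial markers Mbp, a myelin protein, rose (0.52, adjusted p = 0.0210), a call that ended without Bmal1-/- replicate 4, Bmal1-/- replicate 5 or wild-type replicate 3 (adjusted p up to 0.0832). The other direction held for 3 of the 6, and the list median was -0.11. Sox10 (-0.70, adjusted p = 0.0739), Oxt (-0.57, adjusted p = 0.0565) and Apoe (-0.25, adjusted p = 0.104) were lower without overlap, uncalled. Sox10 read 14.3, 13.7 and 8.3 on the arrays labelled Bmal1-/-, all below the filter's intensity of 17.3. It was thus tested only through its wild-type level, and its place among these lower markers is no support for a difference. In limma 0 of 12 tested folliculostellate and stem cell markers passed, with 1 at an unadjusted p under 0.05, and 0 of 3 tested erythroid markers, with 0 at an unadjusted p under 0.05. Of 13 cartilage and bone markers 1 passed the filter, and it was not called. The part of these cell types in the matrix results was not tested.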

How the data were processed

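Whole-pituitary RNA from 6 pools was hybridised to Affymetrix mouse arrays, 1 array per pool. The deposited values are linear intensities per probe set, summarised by the authors with MAS5, per the submitters' processing notes, and the version and target scaling were not stated there. Each array had a trimmed mean of 100.0, so no further scaling was applied. Of 22690 probe sets, 64 controls were left out. Of the remaining 22626, 20380 were annotated to 1 gene, 691 to several and 1555 to none listed, and only the first kind was named.

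Intensities were tested as log2 of intensity plus 16 with limma 3.58.1 in R 4.3.3 (lmFit and eBayes with an intensity trend) on the 13576 brightest non-control probe sets (60%). P-values were adjusted by Benjamini-Hochberg over all of them, with a threshold of 0.05, and intervals are 95% intervals. The procedure was tested on simulated data. Genes named are the called members, those with adjusted p under 0.1, the brightest members overall and per role, partner chains of called collagens, and up to 4 called genes of each list. The few other members below the filter were chosen after their values were seen. The members, the 8 pathway lists and the 10 marker lists were chosen with earlier results of these data known. Alternatives were another pseudocount, filter, scaling, variance model or threshold, another choice of probe set, and leaving out each array. All 83 members matched a RefSeq gene, and promoters come from RefSeq on GRCm38.p6 for 56 of them. P-values measure the spread between pools.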

Additional observations from a re-analysis of the deposited data

How the results depend on the processing

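Mgp, Dcn and Ccn3 kept their direction and call under all 16 alternatives run for each. The count of members called higher, 2 as reported, was 1 with dim probe sets kept, without the intensity trend, after quantile normalization and at adjusted p under 0.01, and 1 to 3 when 1 array was left out. The count called lower, 5 as reported, was 3 without the intensity trend, 2 at adjusted p under 0.01, 8 at adjusted p under 0.1, and 2 to 6 when 1 array was left out. Without Bmal1-/- replicate 5, or without wild-type replicate 3, only Ccn3, Dcn and Mgp were called, while 3 were higher and 6 lower without wild-type replicate 2. The number of probe sets called over the whole array, 752, was 330 with dim probe sets kept, 407 without the trend, and 312 (without wild-type replicate 3) to 939 (without wild-type replicate 2) when 1 array was left out. The median log2 difference of the tested members, -0.12, was -0.06 with equal array medians (where the median of all genes also moved, to 0.06), -0.06 with a pseudocount of 64, -0.06 after quantile normalization, -0.08 with dim probe sets kept, and -0.16 to -0.04 when 1 array was left out. Leaving out an array or adding probe sets to the adjustment changes the test itself, and the causes of these shifts were not tested.

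Some uncalled members changed sign. Col6a1 was -0.01 with array weights and -0.04 to 0.06 with 1 array left out, Lama2 was 0.01 after quantile normalization and -0.19 to 0.10 with 1 array left out, and Sparc was 0.01 with equal medians, 0.07 as the mean of its probe sets and -0.15 to 0.01 with 1 array left out. With 1 array left out, Col15a1 was -0.34 to 0.05, Col16a1 -0.35 to 0.15 and Mmp2 -0.03 to 0.09. No paired analysis was possible because the labels number the wild-type samples 1 to 3 and the Bmal1-/- samples 4 to 6. With 3 arrays per genotype, and signal near the floor for 48 of 83 members, small differences could go undetected here.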
